A study of Mus musculus with 12 samples.

Results

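The Ifi200 gene cluster on mouse chromosome 1 was followed in RAW264.7, a line of mouse macrophages, across 4 groups with 3 single-colour arrays each. It was taken as every probe that the array files name Ifi203, Ifi204, Ifi205 or Aim2, plus every probe for a long intergenic noncoding RNA (lincRNA) region on chromosome 1 between 175500000 and 176000000 of mm9. The cluster was chosen by name and position, but selected on LPS changes already seen on these same arrays. This gave 33 probes of the 55681 on the array, 7 for coding genes (4 for Ifi203, 2 for Ifi204 and 1 for Aim2) and 26 for 6 lincRNA regions. All 33 passed the filter on dim probes, which asks for a signal well above background throughout 1 or more of the groups, and 20 were well above background on all 12 arrays. With the brightest probe standing for each gene or region, they formed 9 of the 23931 features tested. No probe was named Ifi205, and its RefSeq transcript was listed only on the probe named Mnda, together with a second transcript, so Ifi205 was not measured on its own.

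The groups were an siRNA against lincRNA-Tnfaip3 with LPS, that siRNA alone, control siRNA with LPS, and control siRNA alone. Every culture received an siRNA for 24 h and then spent 4 h in the presence or absence of LPS from E. coli (1 µg/ml), so that no group was free of siRNA. No probe carried the name of the siRNA's target, and the knockdown was not checked here. The labels do not say whether the 3 arrays of a group came from separate cultures, so errors and p-values cover the spread between these arrays, which may be technical.

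The genes of the cluster encode the PYHIN proteins, which pair a pyrin domain for contacts with other proteins with HIN domains that bind DNA. Aim2 binds DNA in the cytosol and, through the adaptor encoded by Pycard, recruits Casp1 into an inflammasome, and the protein of Ifi204 has been linked to the sensing of DNA and the induction of interferon. In macrophages LPS is sensed through TLR4, which induces interferon beta, and much of the Ifi200 family is known to be interferon-inducible. The lincRNA regions were transcribed intervals placed on the array with separate probes for the forward and the reverse strand.

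On mm9 the Aim2 probe lay at chr1:175396036-175396095 on the plus strand, the Ifi204 probes at chr1:175677552-175677706 and the Ifi203 probes at chr1:175850536-175854265, both on the minus strand. The 6 lincRNA regions lay between Aim2 and Ifi203, on either side of Ifi204. They are called here A-rev (chr1:175653557-175671940), B-rev and B-fwd (chr1:175654606-175672031), C-rev (chr1:175660642-175671878), and D-rev and D-fwd (chr1:175705225-175717250), with rev for the minus strand. The intervals A, B and C overlap. A coding-type probe for AI607873, a name listed as a synonym of Ifi207, falls in A on the same strand as the reverse lincRNA probes. On that strand a probe named ENSMUST00000042610 (chr1:175666571-175671746) falls in A, B and C. Another, named ENSMUST00000111210 (chr1:175711138-175711197), falls in D. Exon and intron positions on mm9 are not given. The nearest lincRNA regions outside the window were 2011 kb below it and 3198 kb above it.

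Sequences show how close the lincRNA probes are to the coding genes. A reverse lincRNA probe of A-rev and the AI607873 probe were both placed at chr1:175653663-175653722, and their 60 bases differed by a single substitution, A18T, counted from 1 at the 5′ end with the base of AI607873 first. Bases 4 to 33 of the 2 probes are shown with that position in capitals.
A-rev probe: ctactaaaagcagcTcttaattctaagaaa
AI607873 probe: ctactaaaagcagcActtaattctaagaaa

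The brightest Ifi204 probe (chr1:175677647-175677706) and the brightest D-rev probe (chr1:175706660-175706719) had 18 bases in common, in capitals here, although they lie at different places.
Ifi204 probe, bases 7 to 36: gagaacCTCTCTGGAACCATACTTctgaaa
D-rev probe, bases 31 to 60: agtcaggagaaaCTCTCTGGAACCATACTT

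Of the 5 probes of B-fwd, 4 carried the 14 letters shown in capitals, which occur in no other probe of the array and in no probe as the reverse complement. These 4 probes sample a tandem repeat and are not independent measures of the strand.
B-fwd probe starting at 175659202: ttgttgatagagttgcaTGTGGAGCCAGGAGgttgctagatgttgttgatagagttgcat
B-fwd probe starting at 175659243: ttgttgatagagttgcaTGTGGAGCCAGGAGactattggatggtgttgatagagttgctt
B-fwd probe starting at 175659288: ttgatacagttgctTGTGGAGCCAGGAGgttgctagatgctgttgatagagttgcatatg
B-fwd probe starting at 175659524: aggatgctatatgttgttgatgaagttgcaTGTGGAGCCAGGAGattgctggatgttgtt

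In region D a forward and a reverse probe overlapped by 28 bases (chr1:175710941-175710968), so that the same stretch of genome was read on both strands.
D-fwd probe, bases 1 to 28: gtcccctttgcttgtgagagaagataag
D-rev probe, bases 1 to 28: cttatcttctctcacaagcaaaggggac

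Over all 33 probes, 9 shared a run of at least 20 bases with a probe of another name, all 9 of them lincRNA probes, and 0 shared such a run with a probe outside the cluster on either strand. Among these 9, only the A-rev probe at the position of AI607873 had a gene probe as its closest partner. For the rest the closest partner was a probe of another lincRNA region. That A-rev probe can therefore not be separated from AI607873, nor can every reverse lincRNA region be separated from the others by every probe. Whether other reverse probes also read RNAs of the family genes was not tested.

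Ifi203, Ifi204 and all 6 lincRNA regions had higher signals with LPS than without it under both siRNAs, by 1.54 to 3.11 in lincRNA-siRNA cells and by 2.19 to 4.56 in control-siRNA cells, on the log2 scale, while Aim2 changed by 0.24 in lincRNA-siRNA cells and 0.09 in control-siRNA cells. Values are log2 signals relative to the 75th percentile of each array, so that 0 is the 75th percentile, and they are compared within a probe only.

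Ifi204 stood at 5.31, 5.00 and 4.90 on the arrays of the lincRNA siRNA with LPS and at 1.80, 3.13 and 3.24 on those of the lincRNA siRNA alone. It stood at 4.77, 5.38 and 5.10 with control siRNA and LPS and at 1.78, 2.04 and 1.82 with control siRNA alone. The LPS arrays of both siRNAs overlapped each other and lay above every array without LPS. The change with LPS was 2.35 ± 0.34 in lincRNA-siRNA cells and 3.20 ± 0.34 in control-siRNA cells (log2 ± SE of the model, n = 3 arrays per group), which is 5.08-fold and 9.22-fold.

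Ifi203 had log2 signals of 2.58, 2.29 and 2.29 with the lincRNA siRNA and LPS and of -2.69, 0.15 and 0.39 with the lincRNA siRNA alone. With control siRNA it had 1.54, 2.65 and 2.74 with LPS and -2.50, -2.04 and -2.19 without. As for Ifi204, the LPS arrays lay above all others, and the first array of the lincRNA siRNA alone sat among or below the control arrays while the other 2 sat above them. The changes with LPS were 3.11 ± 0.69 in lincRNA-siRNA cells and 4.56 ± 0.69 in control-siRNA cells, or 8.61-fold and 23.5-fold.

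Aim2 was well above background on all 12 arrays and moved little with LPS. Its log2 signals were 0.71, 1.00 and 0.63 with the lincRNA siRNA and LPS, 0.37, 0.56 and 0.68 with the lincRNA siRNA alone, 1.20, 0.89 and 0.96 with control siRNA and LPS, and 1.18, 0.84 and 0.77 with control siRNA alone. The LPS arrays overlapped the arrays without LPS under both siRNAs. Without LPS every array of the lincRNA siRNA lay below every control-siRNA array. The changes with LPS were 0.24 ± 0.15 in lincRNA-siRNA cells and 0.09 ± 0.15 in control-siRNA cells.

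The reverse-strand lincRNA regions ran alongside the coding genes. A-rev had 4.53, 4.26 and 3.93 with the lincRNA siRNA and LPS, 1.46, 2.40 and 2.66 with the lincRNA siRNA alone, 4.03, 4.46 and 4.41 with control siRNA and LPS, and 1.27, 1.56 and 1.34 with control siRNA alone. D-rev had 5.75, 5.42 and 5.51 with the lincRNA siRNA and LPS, 2.47, 3.96 and 3.93 with the lincRNA siRNA alone, 5.28, 5.68 and 5.84 with control siRNA and LPS, and 2.58, 2.67 and 2.75 with control siRNA alone. In each region the LPS groups overlapped each other and did not overlap the groups without LPS. The AI607873 probe at the position of A-rev read 4.85, 4.62 and 4.20 with the lincRNA siRNA and LPS, 1.68, 2.54 and 2.91 with the lincRNA siRNA alone, 4.26, 4.89 and 4.75 with control siRNA and LPS, and 1.67, 1.93 and 1.59 with control siRNA alone, which is the same order of groups.

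B-rev had 4.44, 4.22 and 4.07 with the lincRNA siRNA and LPS, 1.16, 2.49 and 2.57 with the lincRNA siRNA alone, 4.07, 4.65 and 4.36 with control siRNA and LPS, and 1.51, 1.69 and 1.20 with control siRNA alone. C-rev had 3.27, 3.27 and 3.04 with the lincRNA siRNA and LPS, 0.41, 1.55 and 2.08 with the lincRNA siRNA alone, 3.01, 3.58 and 3.74 with control siRNA and LPS, and 0.44, 0.91 and 0.77 with control siRNA alone. In both, the first array of the lincRNA siRNA alone was again the lowest of its group and lay below every control-siRNA array. The LPS changes of the 4 reverse regions ran between 1.85 ± 0.37 (C-rev) and 2.17 ± 0.34 (B-rev) in lincRNA-siRNA cells, and between 2.73 ± 0.37 (C-rev) and 2.94 ± 0.35 (D-rev) in control-siRNA cells.

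The forward strand of regions B and D gave higher signals with LPS as well. B-fwd had -0.62, -0.75 and -0.70 with the lincRNA siRNA and LPS, -3.12, -2.76 and -2.73 with the lincRNA siRNA alone, -0.96, -1.00 and -0.46 with control siRNA and LPS, and -4.10, -3.49 and -3.78 with control siRNA alone. D-fwd had -2.82, -2.19 and -2.50 with the lincRNA siRNA and LPS, -4.50, -4.54 and -3.10 with the lincRNA siRNA alone, -3.16, -2.37 and -2.51 with control siRNA and LPS, and -4.15, -5.36 and -5.11 with control siRNA alone. B-fwd had the smallest spread of the lincRNA regions, and it was the 1 member that had all 3 arrays of the lincRNA siRNA above all 3 control arrays without LPS. The LPS changes were 2.18 ± 0.19 for B-fwd and 1.54 ± 0.44 for D-fwd in lincRNA-siRNA cells, and 2.98 ± 0.19 and 2.19 ± 0.44 in control-siRNA cells.

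**Figure D1:**
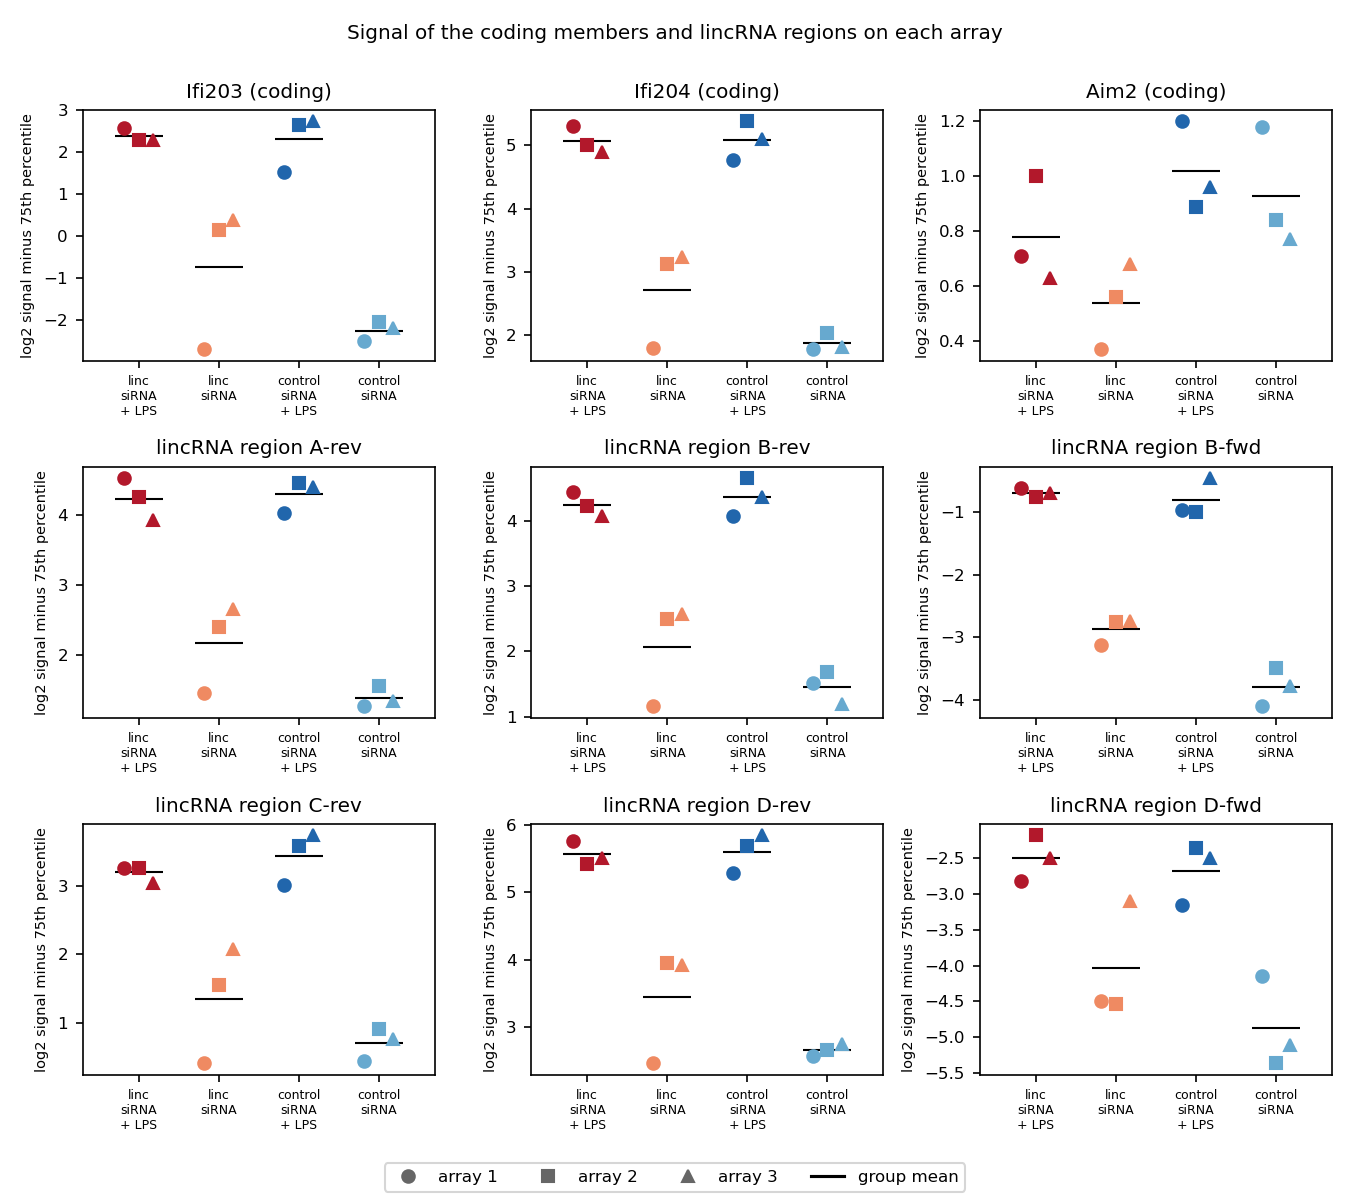
Log2 signal minus the 75th percentile of the array (vertical axis, a separate scale in each panel) for Ifi203, Ifi204, Aim2 and the 6 lincRNA regions, by group, with linc siRNA for the siRNA against lincRNA-Tnfaip3. Symbols mark arrays 1 to 3 and the bar is the group mean: in every panel but that of Aim2, every LPS array lies above the arrays of the same siRNA without LPS, and array 1 of the lincRNA siRNA alone lies among, below or, for B-fwd, just above the control-siRNA arrays without LPS.

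The LPS arrays stood above the arrays of the same siRNA without LPS in 8 of the 9 features with the lincRNA siRNA and in 8 of 9 with control siRNA, Aim2 being the exception in both. How many of all features separate in this way was not counted, so nothing is read from these counts. By limma's test with Benjamini-Hochberg adjustment over all features at 0.05, 6 of 9 passed in lincRNA-siRNA cells (all but Ifi203, Aim2 and D-fwd), where 1.85% of all features passed, and 8 of 9 in control-siRNA cells (all but Aim2), where 5.12% passed. Since the members were proposed with these changes known, the counts describe them and are no test. With the slide as a block the members passing numbered 1 in lincRNA-siRNA cells and 4 in control-siRNA cells, and the changes of those 9 features were 0.18 to 3.30 and 0.25 to 4.50.

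Single probes of a gene differed in the size of the LPS change. In control-siRNA cells the 2 Ifi204 probes changed by 3.20 and 5.95 and the 4 Ifi203 probes by 1.74 to 5.63, while in lincRNA-siRNA cells the ranges were 2.35 to 3.57 for Ifi204 and 1.00 to 3.60 for Ifi203. Without LPS, 2 of the Ifi203 probes were not well above background on any control-siRNA array, so their control-siRNA changes are bounds, of at least 32.6-fold for the probe at chr1:175852372-175852430 and at least 2.46-fold for the probe at chr1:175851818-175851877. Each bound sets the mean with LPS against, on each array without LPS, whichever was higher, the signal of that probe or the dimmest signal well above background.

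The 16 reverse lincRNA probes changed by 1.85 to 3.06 in lincRNA-siRNA cells (median 2.23) and by 2.73 to 4.48 in control-siRNA cells (median 3.03). The 10 forward probes changed by 1.26 to 3.33 in lincRNA-siRNA cells (median 2.19) and by 1.50 to 3.65 in control-siRNA cells (median 3.07). Every lincRNA probe of either strand was therefore higher on average with LPS. Some D-fwd changes are bounds, because no array without LPS was well above background. These are 2 probes in lincRNA-siRNA cells, at least 6.11-fold and 8.40-fold, the second being the probe at the top of the forward range, and 3 probes in control-siRNA cells, at least 6.38-fold to 8.27-fold. The median change over all 23931 features was -0.01 in lincRNA-siRNA cells and 0.06 in control-siRNA cells.

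The 28-base overlap in region D gave a direct pair of strands. Its D-rev probe had a mean of 1.89 with the lincRNA siRNA and LPS against -0.68 with that siRNA alone, and 1.94 with control siRNA and LPS against -2.07 with control siRNA alone. The D-fwd probe had means of -2.50 and -4.04 in the same lincRNA-siRNA groups, and of -2.68 and -4.87 in the control-siRNA groups. Both strands of this stretch were higher with LPS under both siRNAs.

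**Figure D2:**
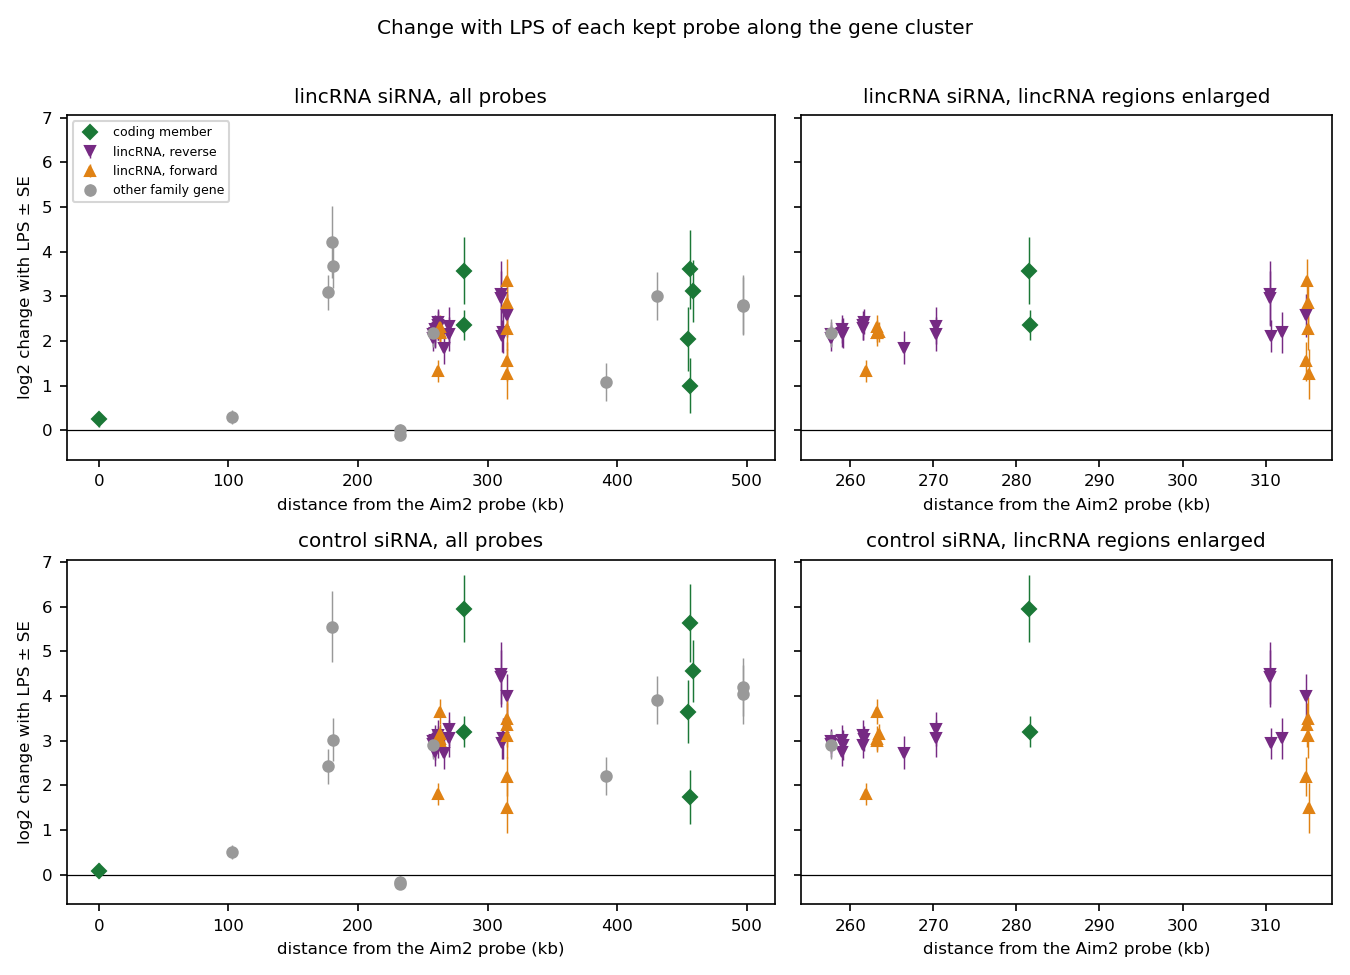
Log2 change with LPS (vertical axis, ± SE) of each kept probe against its distance in kb from the Aim2 probe (horizontal axis), with the lincRNA siRNA above and control siRNA below, and the lincRNA regions enlarged on the right. Diamonds are coding members, triangles the lincRNA probes by strand, and grey circles other genes of the family; the Aim2 probe lies near 0 and every lincRNA probe lies above 0.

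The second question was whether the siRNA against lincRNA-Tnfaip3 changed the members, a contrast that was not used to choose them. With LPS, the difference between the lincRNA siRNA and control siRNA was close to 0 for Ifi204 (-0.01, 95% CI -0.76 to 0.74) and 0.08 for Ifi203, with a wide interval (-1.47 to 1.62). Aim2 differed by -0.24 (-0.58 to 0.11), and the 6 lincRNA regions by -0.25 (C-rev) to 0.18 (D-fwd), with a median of -0.05. By limma's test 0 of 9 passed, where 0% of all features passed, and 0 of 9 had an unadjusted p under 0.05 against 1106 of 23931 features. The interval of B-fwd, the narrowest of the lincRNA regions, was -0.32 to 0.55, that of Aim2 was narrower, and those of the remaining 7 features were wider.

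Without LPS, 8 of the 9 members had higher means with the lincRNA siRNA than with control siRNA, and none of these differences passed. The difference was 1.53 for Ifi203 (95% CI -0.02 to 3.07, adjusted p = 0.273 by limma's test) and 0.85 for Ifi204 (0.09 to 1.60, adjusted p = 0.243). The lincRNA regions differed by 0.61 (B-rev) to 0.92 (B-fwd), with a median of 0.78, and B-fwd had the lowest adjusted p of all members, 0.194 by limma's test. Aim2 went the other way, at -0.39 (-0.74 to -0.05, adjusted p = 0.240 by limma's test). Of all features 0% passed, 4435 had an unadjusted p under 0.05, and 58.3% were higher with the lincRNA siRNA (median 0.07). Among the members 5 of 9 had an unadjusted p under 0.05, so the absence of calls does not show that the levels were alike. Markers of other cells moved with this contrast as well. Of 6 measured 5 were higher with the lincRNA siRNA (median 0.63), led by Siglech (0.98, adjusted p = 0.221 by limma's test) and Cd3e (0.84, adjusted p = 0.216), and none passed. Siglech stood at 7.09, 6.93 and 6.96 with the lincRNA siRNA alone, against 5.43, 5.62 and 6.98 with control siRNA alone, so that the 2 low arrays were those on slide 1. The summed signal of the 6 markers, in multiples of the 75th percentile, was 125 to 140 with the lincRNA siRNA and 45 to 129 with control siRNA. Siglech was by far the brightest of the 6 on every array, so the sum mostly repeats its values. Mpo (-0.59) was the marker that was lower. Of 9 measured macrophage markers 6 were higher with the lincRNA siRNA (median 0.23), and none passed. Lyz2 differed most, by 0.91 (adjusted p = 0.199 by limma's test), while Adgre1 (-0.35), Spi1 (-0.30) and Ptprc (-0.07) were lower. The summed signal of these markers was 473 to 539 with the lincRNA siRNA and 358 to 444 with control siRNA. The part of either set of markers in the members' differences was not tested.

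The arrays of the lincRNA siRNA without LPS did not form a uniform group for these genes. The first array was lower than both others for 8 of 9 members, by a median of 1.37 against their mean on the log2 scale, and lay within or below the control-siRNA arrays for 8 of 9. The other 2 arrays lay above every control-siRNA array for 7 of 9 members, all but Aim2 and D-fwd. For Aim2 every array of the lincRNA siRNA, not only the first, lay below every control-siRNA array. These positions were not counted over all features, so whether the counts are unusual is not known. Over all features only the distance between arrays was measured. On that first array 7.93% of features were more than 2-fold from the mean of the other 2, against 4.09% to 13.2% over the 12 arrays. The first array was low outside the members too, among interferon-related genes with large siRNA differences given below. With the lincRNA siRNA alone Usp18 stood at -0.51, 2.94 and 3.21 and Irf7 at -0.89, 2.36 and 2.40. Zbp1 stood at -1.12, 2.31 and 2.41. Jak1, at 3.80, 3.94 and 3.76, did not have that array low.

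Leaving out that array gave differences of -0.31 (Aim2) to 2.51 (Ifi203), with a median of 1.11, and 3 of 9 members passed, where 0.556% of all features passed. These were Ifi203 (2.51, adjusted p = 0.0198 by limma's test), D-rev (1.28, adjusted p = 0.0198) and Ifi204 (1.31, adjusted p = 0.0283). The array was singled out by its low values for these same members, so leaving it out raises these differences and narrows their spread. These passes rest on 2 arrays of that group, describe the data and are no test. Within slide 2, where all 3 arrays of the lincRNA siRNA stand against array 3 of control siRNA, the differences without LPS were 1.47 for Ifi203, 0.91 for Ifi204, -0.23 for Aim2 and 0.58 to 1.06 for the lincRNA regions. Slide 1 held only the other 2 control-siRNA arrays, so slide and group cannot be told apart there. Leaving out array 3 of control siRNA, which sets slide 2 against slide 1, gave 2614 features that passed, among them 1 member, B-fwd (0.92, adjusted p = 0.0365 by limma's test).

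**Figure D3:**
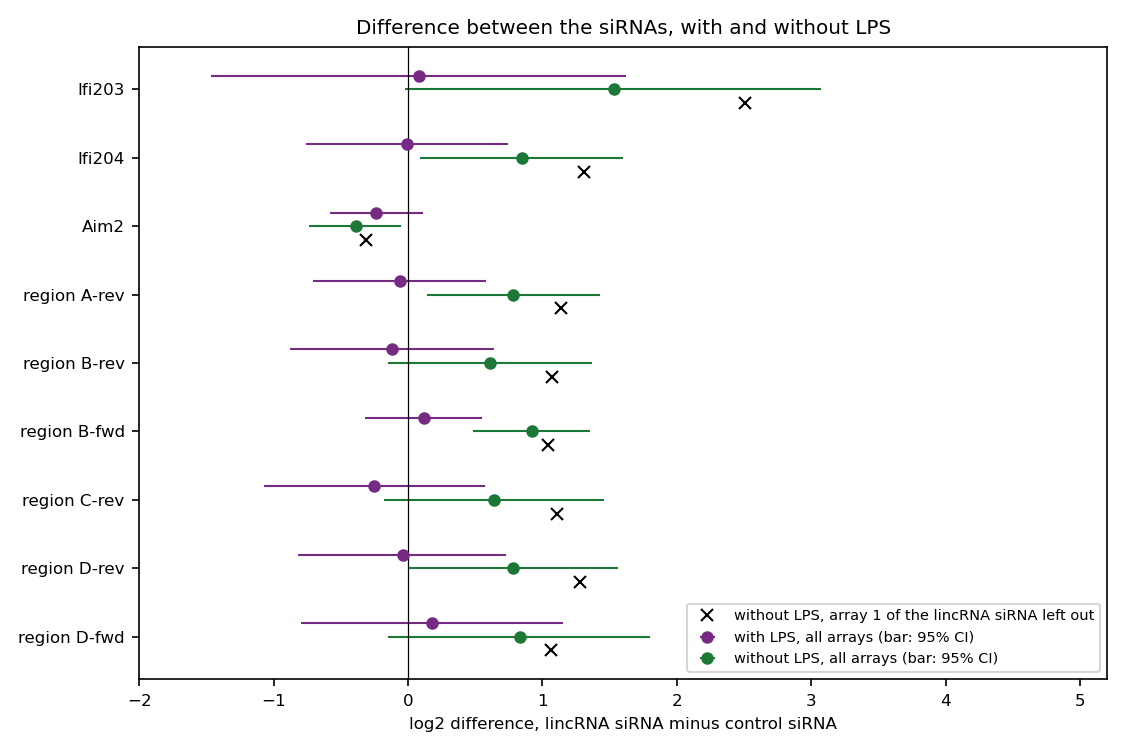
Difference of the lincRNA siRNA minus control siRNA in log2 signal (horizontal axis) for the 9 features, with LPS and without LPS, as points with 95% confidence intervals, and without LPS after leaving out array 1 of the lincRNA siRNA, as crosses without an interval. With LPS the points lie within 0.25 of 0; without LPS all but Aim2 lie above 0, and the cross of Ifi203 lies at 2.51.

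The change with LPS was smaller with the lincRNA siRNA than with control siRNA in 8 of 9 members, and the test of that difference did not pass for any of them. The difference of the LPS changes was -1.45 for Ifi203 (95% CI -3.63 to 0.73, adjusted p = 0.891 by limma's test), -0.86 for Ifi204 (-1.92 to 0.21, adjusted p = 0.891) and 0.16 for Aim2 (-0.33 to 0.64, adjusted p = 0.921). For the lincRNA regions it was -0.89 (C-rev) to -0.65 (D-fwd). Of all features 0% passed and 894 had an unadjusted p under 0.05, among them 1 member, B-fwd (-0.80, 95% CI -1.41 to -0.19). The control-siRNA arrays without LPS enter both the LPS change in control-siRNA cells and the siRNA difference without LPS, so these values are not independent of each other.

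Averaged over both LPS states, 6 arrays against 6, the siRNA difference was 0.80 for Ifi203, 0.42 for Ifi204, -0.31 for Aim2 and 0.20 to 0.52 for the lincRNA regions. None of the 9 passed by limma's test, where 0.15% of all features passed, and 2 of the 9 had an unadjusted p under 0.05 against 4128 of 23931 features. The lowest adjusted p among the members was 0.165 by limma's test, for a lincRNA region. Without the first array of the lincRNA siRNA alone, Ifi203 passed (1.30, adjusted p = 0.0395 by limma's test), and without array 3 of control siRNA alone 1615 features passed and no member. That first array was singled out on the members' own values, so the pass of Ifi203 is no test.

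Across the 12 arrays the members other than Aim2 moved together. Pearson's r over the arrays lay between 0.879 and 0.998 for the 28 pairs of these 8 features, and between 0.160 and 0.296 for Aim2 with each of them. The 12 points share their LPS state, so these values mainly describe the common difference between arrays with and without LPS. Arrays also deviated within groups for most members at once: the first array of control siRNA with LPS was the lowest of its group for 7 of 9 members, as the first array of the lincRNA siRNA alone was for 8. The same was not counted over all features.

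**Figure D4:**
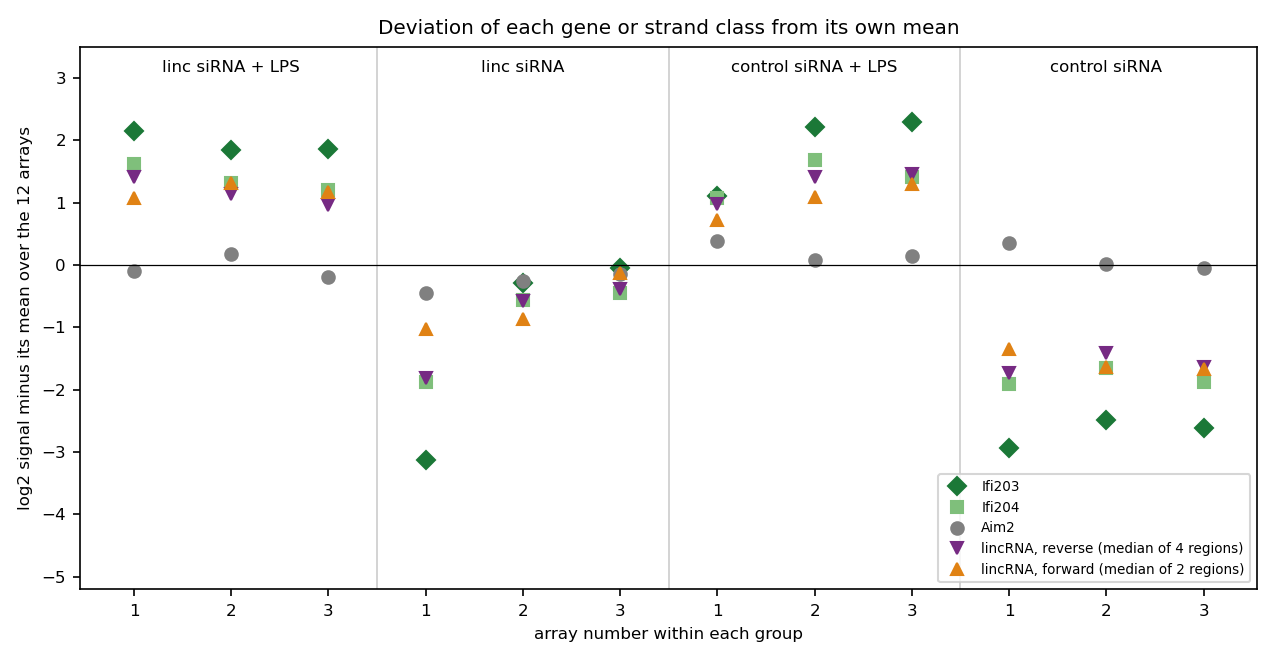
Log2 signal minus its own mean over the 12 arrays (vertical axis) for Ifi203, Ifi204 and Aim2 and, as medians, for the 4 reverse and 2 forward lincRNA regions, by array within each group. Among the arrays of the lincRNA siRNA alone, array 1 lies low (Ifi203 at -3.13, Ifi204 at -1.88), array 2 and array 3 lie nearer to 0 (Ifi203 at -0.28 and -0.05), and Aim2 stays within 0.45 of its mean on all arrays.

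The features most like the coding members over the 12 arrays were found by correlation with the mean of the coding members, each centred on its own mean. They were Helz2, Samd9l, Parp14 and Parp10, each with r = 0.997, and Zfp975 (named Gm5595 on the array) with r = 0.995. Parp14 and Parp10 encode ADP-ribosyltransferases, Helz2 a helicase, and Samd9l a protein known as interferon-inducible. Among lincRNA regions outside the window the closest were 2 on chromosome 6, chr6:3333825-3349525 (r = 0.993) and chr6:3283191-3284581 (r = 0.990), near the Samd9l probe at chr6:3322520-3322579, and chr1:85304494-85305390 (r = 0.988), all on the reverse strand.

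Within the whole Ifi200 family, 10 of the 12 genes listed and present on the array were measured. With LPS 4 of the 10 rose in lincRNA-siRNA cells (median change 2.26) and 7 rose in control-siRNA cells (median change 3.05), and none fell. Of all features 1.5% rose in lincRNA-siRNA cells and 3.25% in control-siRNA cells. Beside Ifi203 and Ifi204, the genes that rose in control-siRNA cells were Ifi209 (5.55 ± 0.81, at least 36.7-fold), Ifi202b (4.20 ± 0.64), Ifi211 (3.90 ± 0.54, at least 10.8-fold), AI607873 (2.90 ± 0.31) and Mndal (2.21 ± 0.42). The Ifi211 values came from the probe named Mnda, which also lists the Ifi205 transcript, so either RNA may have been read. Ifi202b encodes a protein with HIN domains and no pyrin domain that binds DNA and can counter Aim2. The changes that did not pass were 0.50 for Pydc4, 0.09 for Aim2 and -0.21 for Ifi208.

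In lincRNA-siRNA cells the rises were those of Ifi209 (4.21), Ifi211 (3.00, at least 7.57-fold), Ifi204 (2.35) and AI607873 (2.18), all by limma's test. Ifi202b changed by 2.78 and Mndal by 1.08 there without passing. Between the siRNAs without LPS the family differed by -0.39 to 1.60, with a median of 0.75 and 0 of 10 passing. The top value, 1.60, was that of the brightest Ifi209 probe, which was well above background on 2 arrays of the lincRNA siRNA and on 0 control-siRNA arrays. That difference is therefore a bound of at least 2.36-fold. The other 2 Ifi209 probes differed by -0.59 and -0.44, but were well above background on no array of either group. Their direction can therefore not be read. Ifi202b differed by 1.57 and had the first array apart as the members did. Ifi202b stood at -1.00, 1.68 and 1.73 with the lincRNA siRNA alone, against -0.88, -0.49 and -0.93 with control siRNA alone.

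Short pieces of the family's promoters are shown because the members moved together with LPS and the family is known to respond to interferon. RefSeq promoter windows of assembly GRCm38.p6, whose positions are not those of mm9, were searched on both strands for GAAA followed after any 2 bases by another GAAA, a core of the interferon-stimulated response element. This motif occurred in 10 of 14 family promoters, from 9 of 12 genes, and in 3.44% of all 32851 promoters of the same length. The matches of 6 genes that were measured, or that the cluster is named for, are given with 10 bases on either side and the match in capitals, all on the minus strand of chromosome 1 except that of Ifi208.
Ifi203 (chr1:173942508-173942537): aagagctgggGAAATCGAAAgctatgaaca
Mndal (chr1:173880204-173880233): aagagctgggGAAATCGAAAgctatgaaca
Ifi205 (chr1:174031870-174031899): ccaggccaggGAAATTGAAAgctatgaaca
Ifi211 (chr1:173913064-173913093): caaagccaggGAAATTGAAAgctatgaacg
Ifi207 (chr1:173741831-173741860): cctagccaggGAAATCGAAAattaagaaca
Ifi208 (chr1:173673597-173673626): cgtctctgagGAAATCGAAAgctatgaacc

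Of the 5 measured genes with a match in a window, 4 rose with LPS in control-siRNA cells, and of the 3 with a window and no match 2 rose. Ifi211, counted with a match, was read by the probe named Mnda, which also lists the Ifi205 transcript. Ifi204 and Pydc4 were not searched. Ifi208 holds the match and changed by -0.21, whereas Ifi209 and Ifi202b rose in control-siRNA cells and hold no match in their windows. The Aim2 window holds none either, and neither does the window of the other listed start of Ifi203. The letters TTCNNNGAA, a core of the gamma-activated site, occurred in 1 of the 14 family promoters, that of Ifi202b, and in 8.3% of all promoters. A match is a description of letters and not a binding site.

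A list of 10 inflammasome genes held the partners of Aim2, Pycard and Casp1, beside sensors of other inflammasomes (Nlrp3, Nlrc4 and Nlrp1b) and further genes such as Casp4. Counts over the list are therefore not counts of partners of Aim2. With LPS 3 of 10 rose in lincRNA-siRNA cells and 3 rose in control-siRNA cells, with list medians of 0.21 and 0.35, against 1.5% and 3.25% of all features that rose. The highest changes in control-siRNA cells were those of Il1b (2.85 ± 0.16), the cytokine that Casp1 matures, and Nlrp3 (1.85 ± 0.14), another inflammasome sensor, and Casp4 rose by 1.28. The lowest were Nlrc4 at -0.65 and Nlrp1b at -0.22, which did not pass, while Pycard changed by 0.19 and Casp1 by 0.46 without passing. Between the siRNAs 0 of the 10 passed with LPS and 0 without.

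Of 13 genes of cytosolic DNA sensing and interferon signalling, 3 rose with LPS in lincRNA-siRNA cells and 6 in control-siRNA cells, beside the same shares of 1.5% and 3.25% of all features. Ifnb1, the interferon beta gene, changed most, by 4.03 in lincRNA-siRNA cells and 4.24 ± 0.44 in control-siRNA cells, and passed in both. Zbp1, a sensor of nucleic acids, changed by 2.29 in lincRNA-siRNA cells without passing and rose by 3.80 in control-siRNA cells. The lowest changes in control-siRNA cells were Ifnar2 at -0.46 and Tbk1 at -0.19, which did not pass. Of 9 interferon response factors and their regulators 5 rose with LPS in lincRNA-siRNA cells, where 1.5% of all features rose, and 7 in control-siRNA cells, where 3.25% rose, led there by Usp18 (4.91 ± 0.80) and Socs1 (3.49 ± 0.33), both inhibitors of cytokine signalling, with Tyk2 at -0.42 and Jak1 at 0.04 the lowest.

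Without LPS the genes of these last lists with the largest differences between the siRNAs were Usp18 (1.94, adjusted p = 0.249 by limma's test), Irf7 (1.84, adjusted p = 0.242) and Zbp1 (1.56, adjusted p = 0.299). None passed. Ifnb1 differed by 0.32 (95% CI -0.67 to 1.30). It stood at -4.33, -2.88 and -2.61 with the lincRNA siRNA alone, against -3.76, -2.99 and -4.01 with control siRNA alone. For Usp18, Irf7, Zbp1 and Ifnb1 the first array of the lincRNA siRNA alone was the low one, as for most members. Of 20 other genes within the neighbourhood of the cluster on chromosome 1, among them olfactory receptor genes, 9 were measured. In control-siRNA cells 1 of the 9 rose with LPS, Olfr433 (1.75), where 3.25% of all features rose, and Olfr220 followed at 1.40 without passing. Olfr433 was dim, and only 1 control-siRNA array without LPS had it well above background. The lowest changes were Dusp23 at -0.10 and Apcs at -0.01, and 0 of the 9 passed in lincRNA-siRNA cells, where 1.85% of all features passed.

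The RNA carried the markers of macrophages: 9 of 10 macrophage markers on the array, among them Csf1r, Cd68, Adgre1 and Lyz2, were well above background on all 12 arrays. Of 13 markers of other cell types 5 were well above background on all 12 arrays (Cd3e, Cd79a, Mpo, Pecam1 and Siglech) while Cdh1 and Epcam were so on no array. Of 6 measured markers of other cells 0 passed with LPS under either siRNA, with median changes of 0.25 in lincRNA-siRNA cells and 0.49 in control-siRNA cells. Arrays had a 75th percentile of processed signal between 312 and 478, and 27208 to 36415 probes were well above background, lowest on the first control-siRNA array. The small number of arrays limits the precision of every value, and fewer cells with a transcript and less transcript per cell cannot be told apart in such bulk samples.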

How the data were processed

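Total RNA was measured on 12 single-colour Agilent arrays, 3 per group. The deposited scanner files hold spot intensity values made with Agilent Feature Extraction 10.7.1.1, per the file headers, and their processed intensity is background-subtracted and detrended within each array. Probe positions are on mm9, per the file headers. The deposited value table of the series is on a log2 scale and served only as an alternative, since the sources used here do not give its normalization by the authors.

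The processed intensity was put on the log2 scale and the 75th percentile of its array was subtracted. Control spots were left out, and spots of 1 probe were averaged. No value of a member was marked as an outlier by the scanner software (0 values). Saturation of the members' spots was not checked. A probe was kept where 1 or more groups had it well above background throughout (3 of 3 arrays), and each gene or lincRNA region was represented by its kept probe with the highest mean. Linear models with 1 mean per group (12 arrays, 8 residual degrees of freedom) were fitted with limma 3.58.1 in R 4.3.3 (with the package data.table, version 1.17.8), and p-values were adjusted by Benjamini-Hochberg over all 23931 features, with a threshold of 0.05. Every adjusted p in the text comes from limma. SE and 95% intervals are those of the model. The fit was tested on simulated data.

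The contrasts were LPS against no LPS within each siRNA, the lincRNA siRNA against control siRNA with LPS, without LPS and averaged, and the interaction, and contrasts share arrays. The 12 arrays lay on 3 slides, with 2 control-siRNA arrays on slide 1, 2 arrays of the lincRNA siRNA with LPS on slide 3, and 8 arrays on slide 2. Alternatives were normexp background correction (offset 50), quantile scaling, the deposited table, other filters and probe choices, the slide or the replicate number as a block, fits on the compared groups alone, and leaving out each array.

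Gene symbols of 26582 probes were matched to the RefSeq table of GRCm38.p6 for names only. Probe sequences are those in the scanner files and promoters are those of RefSeq. Python 3.11.15, pandas 2.3.3 and matplotlib 3.10.9 were used for sequences and figures. Genes named beside the members are all measured members of the Ifi200 family, the 2 highest and 2 lowest LPS changes in control-siRNA cells of each other list, and the 5 genes and 3 lincRNA regions most like the mean of the 3 measured coding members; others were named after their values were seen. The members and the lists were chosen with earlier results of these data known.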

Additional observations from a re-analysis of the deposited data

How the results depend on the processing

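Of 1702 values compared under 23 other settings, 1562 kept their direction and their side of the threshold, or stayed within the limits set for counts and medians. The cause of each change given here was not tested. The replicate numbers did not pair the arrays: same-numbered arrays of different groups deviated together with a correlation of -0.301 to 0.467 (18 pairs, median 0.088, 8 over 0.1), and the closest array of another group had the same number in 17 of 36 cases. With the replicate number as a block, 20 features passed for the averaged siRNA difference in place of 36, and no member passed in any siRNA contrast.

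The siRNA difference with LPS had no stable sign: 23 of 196 values of single members reversed and none passed. The mean of kept probes gave 0.08 for Ifi204 and -0.09 for Ifi203. The slide as a block and slide 2 alone each gave 0.23 for Ifi204, 0.23 for A-rev, 0.07 for B-rev, 0.15 for D-rev and -0.14 for D-fwd, with 2 features passing under the block. Leaving out 1 array gave -0.31 to 0.29 for Ifi203, -0.17 to 0.14 for Ifi204, -0.21 to 0.09 for A-rev, -0.26 to 0.03 for B-rev, -0.21 to 0.08 for D-rev and -0.06 to 0.33 for D-fwd.

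Without LPS, 3 features passed with normexp, 2 with the mean of kept probes and 1 with the slide as a block, in place of 0, and 0 to 2614 with 1 array left out, the highest without array 3 of control siRNA alone. The members passing then numbered 0 to 3, the highest without array 1 of the lincRNA siRNA alone. The median of the coding members was 1.53 over every kept probe, 1.36 with the mean of kept probes and 0.59 to 1.31 with 1 array left out. For the averaged difference, 0 features passed with no filter, with the slide as a block and within slide 2, against 99 with the strict filter (well above background on all 12 arrays). Leaving out 1 array gave 0 to 1615 features and 0 to 1 members.

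For the interaction, D-fwd stood at 0.03 with normexp and Aim2 at -0.07 with the slide as a block and within slide 2. The median of the coding members was -1.45 over every kept probe and -1.45 with the mean of kept probes. With 1 array left out it was -1.32 to -0.60, and 0 to 357 features passed, the highest without array 3 of control siRNA alone.

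For LPS in lincRNA-siRNA cells, 159 features and 1 member passed with the slide as a block, 46 and 0 within slide 2, and 140 and 1 in the groups compared alone. Among the members, C-rev lost its pass in 13 of 22 other settings. Ifi203 and D-fwd, which did not pass in the main fit, passed in 4 of 22 and 2 of 21. Over every kept probe 23 of 33 passed, and with 1 array left out 247 to 471 features passed with a coding median of 1.89 to 2.60. In control-siRNA cells 715 features passed with no filter, 232 features and 4 members with the slide as a block, 44 and 1 within slide 2, and 633 features in the groups compared alone. Over every kept probe 30 of 33 passed, the coding median was 3.89 with the mean of kept probes, and with 1 array left out 535 to 3983 features passed, the highest without array 3 of control siRNA alone, while Aim2 changed by 0 to 0.21. Fits within slide 2 or with the slide as a block rest on fewer arrays, and signals not well above background make some probe changes of Ifi203 and D-fwd bounds.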
